A study of Mus musculus with 4 samples.

Results

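RNA recovered from mouse brown adipose tissue with an antibody against FAM172A (IP) was compared with RNA recovered with control immunoglobulin (IgG) in 1 pair of libraries, called the first pair here. The comparison covered 6536 of the 22481 gene symbols in the pair's table (29.1%). These genes had at least 1 fragment in both libraries and a mean of at least 20 CPM. CPM stands here for estimated counts after a column was rescaled to sum to 1000000, with rows of the same symbol added up. Just inside the level filter were Mpp1 (ratio -0.06 on the log2 scale), Atic (-0.63) and Zfp687 (0.20), and just outside were Sirpa (-1.97), BC018242 (-0.03) and Utp15 (1.13). The kept genes held 95.5% of the IP fragments and 93.8% of the IgG fragments. All genes in the table are annotated as protein coding.

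The series holds 4 libraries, which form 2 pairs of 1 IP and 1 IgG library each. The titles call all of them wild type (WT), so that no deletion or transgene separates the groups. The 2 libraries titled cold carry the label cold as their protocol, and the other 2, titled WT4, carry no protocol label. The columns of the first pair name only IP and IgG. The cold libraries therefore belong to this pair by elimination, since the other table names WT4. Strain, age, sex, temperature and hours of cold are not given in the sources used here, and no label states whether different animals gave the pairs. According to its design text, the series asked which messenger RNAs are bound by FAM172A in brown fat during cold exposure.

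In RNA immunoprecipitation, a protein is pulled out of a lysate together with the RNA attached to it, and the recovered RNA is sequenced. The IgG library measures the RNA that comes along without a specific antibody. Brown adipocytes burn fatty acids in their many mitochondria, where uncoupling protein 1 (UCP1) turns the proton gradient into heat. FAM172A is a protein with reported roles in splicing and in the nuclear import of Argonaute proteins, which carry small RNAs. BDH1, named in the title of the series, interconverts the ketone bodies acetoacetate and 3-hydroxybutyrate in mitochondria.

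The first pair held 6633635 fragments in IP and 5587278 in IgG, counted over genes. At least 1 fragment was present for 11558 genes in IP and for 13363 genes in IgG. With 1 library on each side there is no replicate check, so that no test was made and no p-value is given. Ratios are log2 of IP over IgG in CPM unless FPKM is named, and a 2-fold line (1 on the log2 scale) is used for description. Intervals are exact 95% intervals from the fragments of a gene. They cover counting error only, and not the difference that 2 repeats of the same immunoprecipitation would show.

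Markers of brown fat and of skeletal muscle were abundant in both libraries. Ucp1 (chr8:83290352-83298452 on the plus strand, mm10) was at 5872 CPM in IP and 5749 in IgG, and Fabp4, the fatty acid carrier of fat cells, was at 3573 and 3385. The 25 skeletal muscle genes summed to 37954 CPM in IP and 32018 in IgG, most of it from Ttn, which encodes the giant sarcomere protein titin. The part of muscle RNA in the other ratios was not tested. Lymphocyte genes were near absent, with sums of 5.28 and 19.9 CPM over 11 genes, and Cd3e, Cd3d and Cd4 had 0 fragments in both libraries. Liver genes summed to 51.3 and 39.4 CPM.

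Most genes differed little between IP and IgG, and more were lower than higher in IP. The median ratio was -0.11, and the range from the 5th to the 95th percentile was -1.80 to 1.28. Of the 6536 genes, 43.8% had a ratio above 0 and 4981 (76.2%) lay within 2-fold. At least 2-fold higher in IP were 535 genes (8.19%), and at least 2-fold lower were 1020 genes (15.6%). At 4-fold these counts were 89 and 247. Rescaling with edgeR's TMM factors, which shifted all ratios by 0.14, changed the counts at 2-fold to 685 higher and 837 lower. The higher genes were then 45.0% of those past the line, in place of 34.4%.

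**Figure D1:**
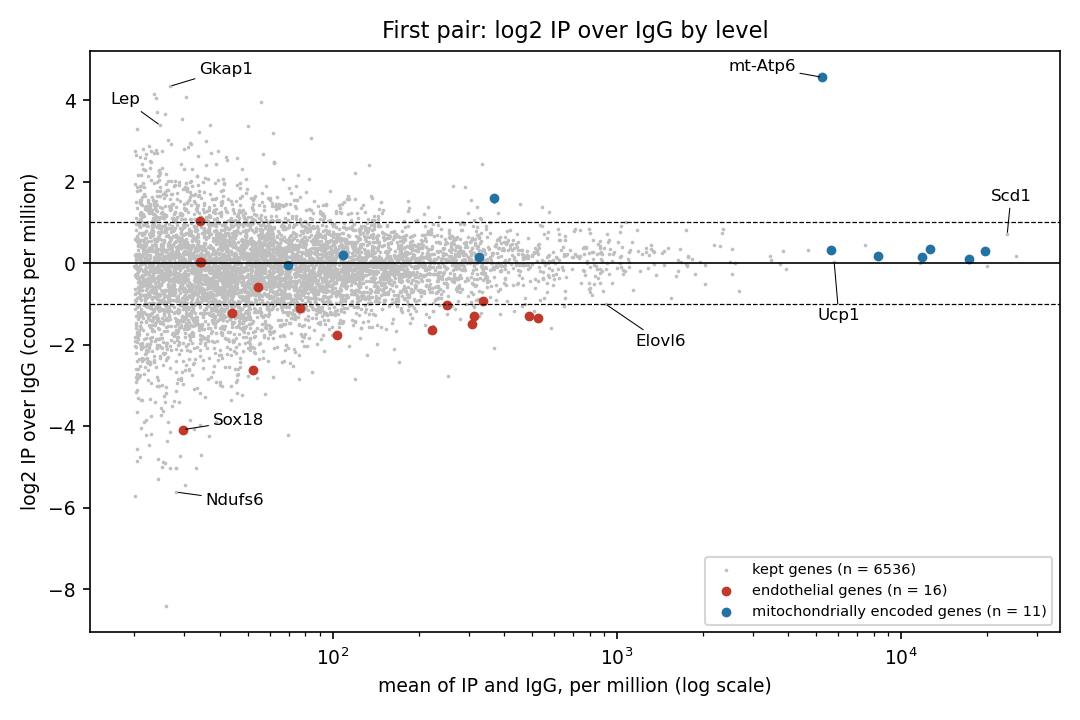
Each point is 1 of the 6536 genes of the first pair, with its mean of IP and IgG CPM on a log axis and its log2 ratio of IP over IgG on the vertical axis; dashed lines mark 2-fold. The cloud narrows to the right, 16 endothelial genes (red) sit mostly under the lower line, and of 11 mitochondrially encoded genes (blue) mt-Atp6 stands alone at 4.57.

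The spread of the ratio depended on the level of the gene. For 1279 genes at 20 to 30 CPM the SD across genes was 1.40, and 15.4% were at least 2-fold higher and 26.0% lower. The SD fell with each class of level, to 0.54 for the 233 genes at 500 CPM and above, where 4 genes were 2-fold higher and 5 lower. Counting error alone would give the median gene an SD of 0.18 in the lowest class and 0.029 in the highest. The observed SD was thus 7.90 times the counting SD in the lowest class and 18.5 times in the highest. Among the 1920 genes of at least 100 CPM, 62 (3.23%) were 2-fold higher and 108 (5.62%) lower. The median ratio also moved with level, from -0.21 at 20 to 30 CPM to 0.12 at 500 and above.

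**Figure D2:**
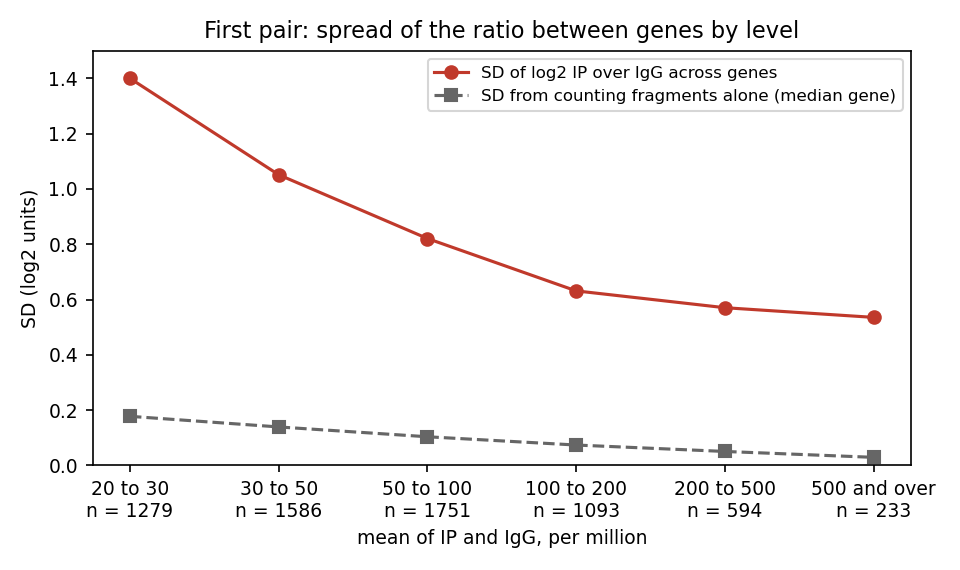
The SD of the log2 ratio across genes (red) and the SD that counting fragments alone gives the median gene (grey) are plotted for 6 classes of mean level in CPM, with the number of genes under each class. The SD across genes goes from 1.40 to 0.54 and stays above the counting SD in all 6 classes.

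The most abundant transcripts were mostly within 2-fold between IP and IgG, and more of them were higher than lower in IP. The 100 most abundant genes, with means of at least 886.9 CPM, had a median ratio of 0.16 and an SD of 0.58. Of these 66 had a ratio above 0, and the set held 33.5% of the IP library and 28.7% of the IgG library. Past the 2-fold line were 2 higher genes and 1 lower gene. Scd1, a desaturase that makes oleate, was at 29300.2 CPM in IP and 17938 in IgG, a ratio of 0.71. Fasn, the fatty acid synthase, was at 19474.5 and 20588, and Gpd1, which makes glycerol 3-phosphate for triglycerides, was at 11614 and 11634. Their ratios were -0.08 and -0.00. Macf1, a crosslinker of actin and microtubules, was at 8640 and 6333, a ratio of 0.45. The 3 genes past the line were mt-Atp6, Nfe2l1 (a transcription factor of proteasome genes) with 1434 and 712 CPM, and Elovl6 (a fatty acid elongase) with 606.6 and 1219 CPM. Nfe2l1 and Elovl6 lay close to the line, at 1.01 and -1.01.

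The 13 mitochondrially encoded genes summed to 92792 CPM in IP and 70681 in IgG. The gene with the highest ratio was mt-Atp6, a subunit of ATP synthase, at 10090 CPM in IP and 426.1 in IgG. Its ratio of 4.57 was also the highest of all kept genes, although its locus in the table is an interval shared by 6 genes, which leaves the split of fragments among them uncertain. The log2 ratio of the sums was 0.39, and without mt-Atp6 it was 0.24, from sums of 82702.5 and 70255 CPM. The other large departure was mt-Nd6, which lies on the minus strand opposite the remaining mitochondrial messages, with 555.1 and 183.0 CPM and a ratio of 1.60, at a locus interval shared by 3 genes. Most of the others lay close together, with mt-Nd1 at 0.29, mt-Nd2 at 0.17, mt-Nd5 at 0.15 and mt-Co1 at 0.12. The gene mt-Co2 was listed at 0 in both libraries although its neighbours had many fragments (120042 in IP for mt-Co1), so that a 0 in these columns need not be an absence of RNA.

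The RNA of Fam172a, the gene whose protein was pulled down, was at a similar level in both libraries. Fam172a (ENSMUSG00000064138, chr13:77702033-78166235 on the plus strand) had 141 fragments in IP and 135 in IgG, or 21.2 and 24.2 CPM. Its ratio was -0.19 with a counting interval from -0.54 to 0.17, and its locus is shared with 1 other gene. Bdh1 (chr16:31422280-31458901 on the plus strand) had 27 fragments in IP, or 4.07 CPM, and was listed at 0 in IgG. It was therefore under the level filter. If the 0 is a count, it allows up to 0.537 CPM in IgG, and the lower limit of the counting interval of the Bdh1 ratio was 2.52 on the log2 scale.

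The other ketone body genes lay slightly above the median of all genes. Of 11 listed genes 5 were kept, all with a ratio above 0 and none past the 2-fold line, with a median of 0.32. Aacs, which activates acetoacetate for lipid synthesis, was at 388.6 CPM in IP and 336.7 in IgG. Oxct1, the enzyme that commits ketone bodies to oxidation, was at 134.5 and 80.7, a ratio of 0.74. In FPKM the ratio of Oxct1 was 2.53, from 180.2 in IP and 29.8 in IgG, so that its size depended on the column used.

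The 12 genes with the highest ratios had log2 ratios from 2.96 to 4.34, with 295 to 995 fragments in IP and 14 to 100 in IgG. They were chosen among genes whose locus is not shared, and they are given as a description of the upper end. The highest was Gkap1, an anchoring protein of cGMP-dependent kinase, with 337 fragments in IP and 14 in IgG and a ratio of 4.34 (interval 3.57 to 5.23). Grik3, a kainate receptor subunit, followed at 4.08 with 381 and 19 fragments. Rap1gap2 (3.72), Scamp2 (3.65) and the collagen crosslinking enzyme Lox (3.54) came next. Lep, which encodes the fat cell hormone leptin, had 298 and 24 fragments and a ratio of 3.39.

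The remaining genes of the upper end were of unrelated function. Kpna3, an importin that carries proteins into the nucleus, had 447 fragments in IP and 36 in IgG. Set, a histone chaperone, had 735 and 67, and Hmgn5, a nucleosome-binding protein, had 995 and 100. Uri1, a prefoldin-like protein, had a ratio of 3.36, and Prx, a myelin protein of Schwann cells, had 3.02. Cldn1, a tight junction protein, closed the set at 2.96. All 12 were also at least 2-fold higher in FPKM, and their highest mean was 83.9 CPM.

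The lower end was further from 0 and rested on few IP fragments. The 12 lowest genes had ratios from -5.71 to -4.75, with 5 to 13 fragments in IP and 220 to 358 in IgG. Bcar3, a signalling adaptor, had 5 and 220 fragments and a ratio of -5.71 (interval -7.34 to -4.46). Ndufs6, an accessory subunit of respiratory complex I, had 7.43 and 307.3 fragments and a ratio of -5.62. Cep170b, Txnl1, Aasdh, Stk10, Galnt18 and Otud5 followed, between -5.44 and -5.01. The set ended with Epha4 (an ephrin receptor), Cyb5rl, Tulp3 and Stx2. All 12 were at least 2-fold lower in FPKM as well, and all had means between 20.1 and 33.0 CPM, close to the filter. Chosen after its values were seen, Gss (glutathione synthetase), with a locus shared by 3 genes, was lower still, with 1 fragment in IP and 287 in IgG.

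Genes with a mean of at least 20 CPM and no fragment in 1 library were left out of the ratios. In IP 17 such genes were listed at 0, and in IgG 10. The most abundant of those at 0 in IP was Fam214a, with 1239 fragments in IgG. Next were Ushbp1 with 946, Otud6b with 852, the RNA helicase Dhx15 with 588, Ankib1 with 446 and the histone deacetylase Hdac3 with 421. At 0 in IgG were the autophagy kinase Ulk1, with 741 fragments in IP, Sft2d2 with 661.9, Cmtm6 with 579, E4f1 with 434, Gramd1a with 325 and Asrgl1 with 294. Dhx15 and Hdac3 are used by nearly all cells, and no fold is given for these genes. A fractional estimate under 1 fragment, as for Otud6b in IP and E4f1 in IgG, was taken as 0.

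Endothelial genes were lower in IP, and their list had the lowest median among lists with at least 3 kept genes. Blood vessels of brown fat are lined by endothelial cells, which carry receptors for vascular growth factors. Of 20 listed genes 16 were kept, and 11 of these (68.8%) were at least 2-fold lower, against 15.6% of all genes. The median ratio was -1.25, or -1.19 in FPKM. Summed over all 20 genes, including those under the filter, the level was 1744 CPM in IP and 4222 in IgG. Over the same 20 genes, 17 were lower in IP and 3 were higher. The sums and this count do not depend on the filter, which a gene can pass through 1 library alone. A smaller share of endothelial cells and less RNA per cell cannot be told apart in such data, and neither can be told apart from a lower recovery of their RNA.

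The growth factor receptors and adhesion molecules that define endothelium lay close together. Kdr, the main receptor for VEGF, was at 298.8 CPM in IP and 754.8 in IgG, a ratio of -1.34. Flt1, another VEGF receptor, was at 161.3 and 456.2, and Ptprb, a phosphatase of endothelial junctions, was at 283.7 and 698.2. The ratios of Pecam1 and Cdh5, which join endothelial cells, were -1.64 and -0.93. Tie1 (-1.76), Tek (-1.10), Eng (-1.29), Robo4 (-1.21) and Egfl7 (-1.03) were also past the line. Of the 8 endothelial genes of at least 100 CPM, 7 were at least 2-fold lower, against 5.62% of all genes at that level. These 8 had between 313 and 1982 fragments in IP, so that their departures from 0 exceeded counting error.

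Lower genes of the list departed further. Sox18, a transcription factor of vessels, had 22 fragments in IP and 314 in IgG and a ratio of -4.08. Sox17 and Emcn were listed at 0 in IP, with 227 and 199 fragments in IgG, and Esam was at 14.7 and 89.8 CPM. Vwf and Erg had ratios of 0.02 and 0.03, with 188 to 230 fragments per library. Ramp2, a receptor partner for adrenomedullin, was higher in IP with a ratio of 1.05, which was 0.38 in FPKM. With TMM factors 9 of the 16 genes remained past the line, and the median was -1.11.

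**Figure D3:**
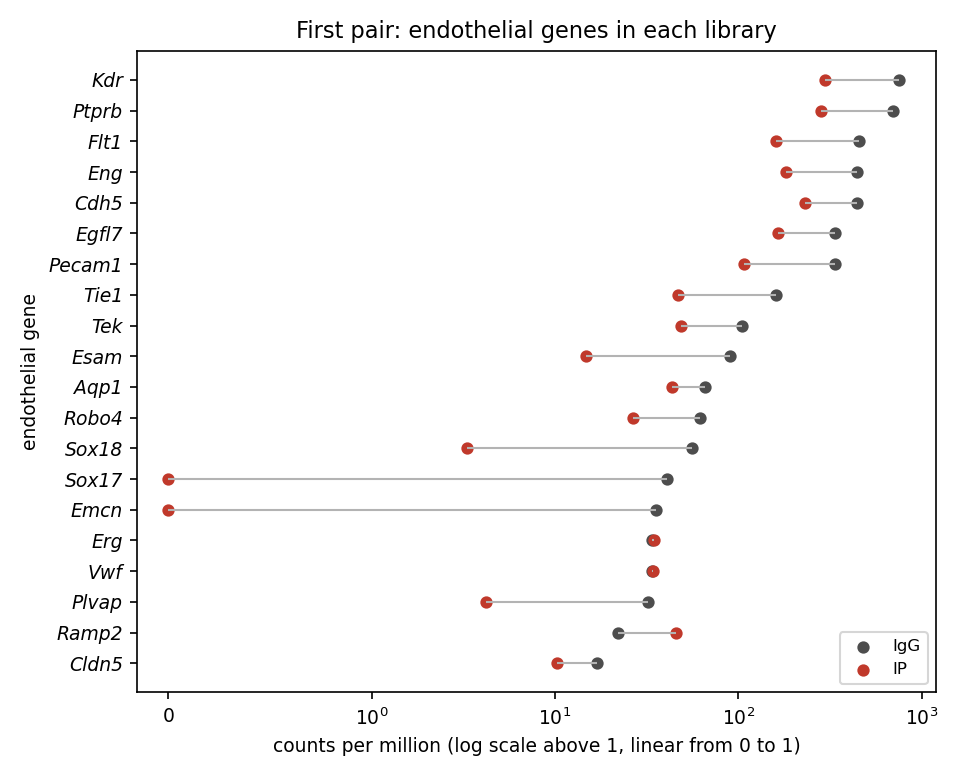
The levels in CPM of the 20 endothelial genes are shown in IP (red) and IgG (dark grey), on an axis that is logarithmic above 1 and linear from 0 to 1; a grey line joins both values of a gene. The red point lies to the left for 17 genes, with Sox17 and Emcn at 0, and to the right for Ramp2, Vwf and Erg.

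Genes of the vessel wall and of matrix had medians below that of all genes. Of 12 genes of smooth muscle and pericytes, the cells that wrap vessels, 9 were kept and 3 (33.3%) were at least 2-fold lower. These were Notch3 (74.2 and 212.3 CPM), Rgs5 (299.8 and 621.8) and Lmod1 (16.7 and 43.1). Myh11, the smooth muscle myosin, was at 121.2 and 78.0, a ratio of 0.64 in the other direction. Of 22 kept genes of collagens and matrix, 4 (18.2%) were lower and none was higher, with a median of -0.42. The share lower is close to the 15.6% of all genes. The most abundant was Hspg2, the basement membrane proteoglycan perlecan, at 1104 and 1985 CPM. Nid1 and Lamb2, also of basement membranes and chosen after their values were seen, were at -1.18 and -1.17, while Col1a2 of fibrillar collagen was at 0.76. In FPKM 9 of the 22 matrix genes were lower and 2 were higher, against 19.3% and 10.8% of all genes in FPKM.

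Fibroblast genes had no common direction. Of 15 genes 8 were kept, with a median of -0.03. Gsn was at 420.3 and 408.4 CPM, whereas the matrix proteoglycan Dcn had a ratio of -1.72. All 5 kept red cell genes had ratios below 0, with a median of -0.80. At least 2-fold lower were 2 of the 5, against 15.6% of all genes. Hbb-bs, an adult beta globin, was at 27.7 and 92.0 CPM. The alpha globin genes Hba-a1 and Hba-a2 are near-identical copies, and how fragments were split between them is uncertain. Macrophage genes were mostly under the filter, with 2 of 16 kept and sums of 146.8 and 92.9 CPM. Of 14 genes of Schwann cells and neurons 3 were kept, among them Prx and the myelin gene Mbp, which was at 53.2 and 54.2 CPM.

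Fat cell and muscle genes lay close to 0 or above it. Of 13 kept adipocyte genes 1 was 2-fold higher, which was Lep, and none was lower, with a median of 0.11. Adipor2, an adiponectin receptor, was at 873.6 and 676.5 CPM, and Cebpa, a regulator of fat cell differentiation, was at 209.1 and 257.7. Of 21 kept skeletal muscle genes 16 were above 0 (43.8% of all genes were), with a median of 0.27. At least 2-fold higher were 2 (9.52%) and lower was 1 (4.76%), against 8.19% and 15.6% of all genes. Ttn was at 26960.2 and 23647.5 CPM. The highest of the list was Tnni2, a troponin I, at 161.9 and 56.7, a ratio of 1.51. The lowest was Tnnt1, a troponin T, at 15.5 and 52.6, a ratio of -1.76, which was -0.39 in FPKM.

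The genes of heat production differed little between the libraries, as did most genes of similar level. Of 23 kept thermogenic genes none was 2-fold higher and 1 was lower, with a median of 0.13. At 100 CPM and above, where 18 of them lay, 3.23% of all genes were higher and 5.62% lower. The lower gene was Prdm16, a regulator that keeps brown fat identity, at 71.9 and 193.3 CPM (ratio -1.43, interval -1.59 to -1.27), at a locus shared with 1 other gene. Esrra, a nuclear receptor that drives mitochondrial genes, was at 188.4 and 99.9, the highest of the list at 0.92. All 21 genes of mitochondrial fatty acid oxidation were kept, 17 of them at 100 CPM and above, and none was past the line. Their ratios ran from -0.88 (Acads) to 0.78 (Eci1), with a median of 0.04. Acsl1, which activates fatty acids, was at 2003 and 2078 CPM.

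In lipid synthesis, breakdown and uptake most genes lay within 2-fold. Of 19 kept genes of fatty acid and triglyceride synthesis 2 (10.5%) were lower, Acss2 (74.5 and 221.8 CPM) and Elovl6. None was higher, and the median was 0.18. All 19 were at 100 CPM and above, where 5.62% of all genes were lower and 3.23% higher. Among 13 kept genes of lipolysis and the lipid droplet, 11 of them at that level, none was past the line. Pnpla2, the lipase ATGL, was at 1915 and 1769 CPM, and the droplet protein Plin4 was lowest at -0.88. Lpl, which releases fatty acids from circulating triglycerides, was at 5231 and 4154, a ratio of 0.33. Lmf1, needed for the maturation of lipases, was higher in IP with 399 and 63.5 fragments, a ratio of 2.40. Gpihbp1, which holds Lpl on capillary endothelium, had a ratio of -0.72.

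In glucose and oxidative metabolism, single genes departed from lists with medians near 0. Glycolysis and glucose uptake had a median of 0.09 over 17 genes. Gapdh was higher in IP, with 1307 and 236 fragments and a ratio of 2.22, although Aldoa of the same pathway was at 2603 and 2584 CPM. Gapdh has many processed copies in the mouse genome, and the assignment of their fragments is uncertain. Pfkp, a phosphofructokinase, was at -1.34. Of 22 genes of the tricarboxylic acid cycle and pyruvate entry 1 was lower, Idh2 at -1.13, and the median was 0.07. Complex I genes spread from -5.62 (Ndufs6) to 1.27 (Ndufc1). Of 35 kept genes 2 (5.71%) were higher and 4 (11.4%) lower, against 8.19% and 15.6% of all genes. None of 13 kept ATP synthase genes was past the line. Of 27 kept genes of complexes II to IV none was higher and 2 (7.41%) were lower. Sdha, a complex II subunit, was at 1205 and 997.6 CPM, and Cox6a1 was lowest at -1.20.

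Genes of RNA handling were in 2 lists with different counts. Of 28 kept splicing factors and hnRNPs, none was higher and 2 (7.14%) were lower, against 15.6% of all genes. Their median was -0.22. At 100 CPM and above, where 19 of them lay, 5.62% of all genes were lower. In FPKM 1 of the 28 was higher and 5 were lower, against 10.8% and 19.3% of all genes, with a median of -0.46. Srrm2, a large spliceosome scaffold, was at 883.7 and 1395 CPM. In the list of Argonaute proteins, CHD7 and their small RNA partners, 13 of 15 genes were kept. Of these 1 was higher, Prkra at 1.37, and 3 (23.1%) were lower, with a median of -0.53. The lowest was Ago3, at 32.8 and 123.0 CPM, whereas Ago2 was at 340.7 and 286.7. In FPKM, Ago3 was at 7.38 and 6.99 and the median of the list was 0.01, so that the lower values of this list were not seen in both kinds of column.

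Among genes of translation, 43 of 55 initiation factors were kept, 4 were higher and none was lower, against 8.19% and 15.6% of all genes. Eif3g, a subunit of the factor that recruits the small ribosomal subunit, was at 79.6 and 19.0 CPM, a ratio of 2.07. Eif4g1, the scaffold of the cap complex, was at 1017 and 787.5, and Eif4a1, its helicase, was at 372.7 and 696.3. Of 84 cytosolic ribosomal protein genes 53 were kept, 3 higher and 6 lower, with a median of -0.25. Rpl13a was at 792.6 and 944.1 CPM. Ribosomal protein genes have many near-identical pseudogenes, and their counts are uncertain. Of 46 kept mitochondrial ribosomal protein genes 5 were higher, among them Mrpl53 at 1.89, and 4 were lower.

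Of 25 kept proteasome genes 5 (20%) were at least 2-fold higher and 5 (20%) lower. At 20 to 30 CPM these shares were 15.4% and 26.0% of all genes, and at 30 to 50 CPM 10.3% and 21.1%. Psmd1, the largest subunit of the regulatory cap, was at 151.0 and 44.4 CPM, and Psma1, an alpha ring subunit, was at 19.1 and 61.7. The most abundant subunit, Psmd4, was at 180.9 and 165.2. Except for Psmd4 and 1 other, all kept subunits were below 100 CPM, where the ratios of all genes spread most. The SD was 1.01 across the list and 0.97 across all genes.

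Chaperones and stress genes were mixed. Of 17 kept heat shock genes 11 were above 0, with a median of 0.30. Hsp90ab1 was at 2928 and 1758 CPM, and Hspa1b, which has a near-identical copy, was higher at 1.37. Cryab, a small heat shock protein of muscle, was lower at -2.78, with 35 and 203 fragments. Of 20 immediate early genes, which respond within minutes to a stimulus, 10 were kept, with a median of -0.36. Among the 10, 1 was higher and 2 were lower, against 8.19% and 15.6% of all genes. Zfp36, which destabilises messenger RNAs, was at 1.76, and Btg2 was at -2.06. Among chaperones of the endoplasmic reticulum, Canx was at 414.0 and 249.0 CPM and Pdia6 was at 3.62 and 61.2.

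Regulators and signalling genes differed from list to list. All 20 very long nuclear regulators were kept and none was past the line. At 100 CPM and above, where 19 of them lay, 3.23% of all genes were higher and 5.62% lower. Above 0 were 5 of the 20, against 43.8% of all genes, and the median was -0.40. In FPKM 4 of the 20 were at least 2-fold lower and none was higher, against 19.3% and 10.8% of all genes in FPKM. Kmt2d was at 795.5 and 1116 CPM, but Kmt2c of the same family of histone methyltransferases was at 472.9 and 341.2. Of 107 kept genes named Zfp 6 (5.61%) were higher and 23 (21.5%) were lower, with a median of -0.31. All genes had 8.19% and 15.6%, and the share lower at 30 to 50 CPM was 21.1%. Of 68 replication-dependent histone genes, whose messages lack a poly(A) tail, 2 were kept, both within 2-fold. Among the Zfp genes, Zfp366 had the lowest ratio, at -3.85, and Zfp113 the highest, at 2.66. Cytoskeletal genes had a median of -0.33 over 21 genes, with Sptbn1 at 2054 and 3298 CPM. Adrenergic and cAMP signalling had a median of 0.0014, with 9 of 18 genes above 0. In this list Prkar2a was at 1.26 and the transcription factor Creb1 was at -1.79, while Gnas, which couples the receptors to adenylate cyclase, was at 3737 and 3778 CPM. Insulin and growth factor genes had a median of -0.36, with Igf1r lowest at -1.35, and among clock genes Cry2 was lowest at -1.90.

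**Figure D4:**
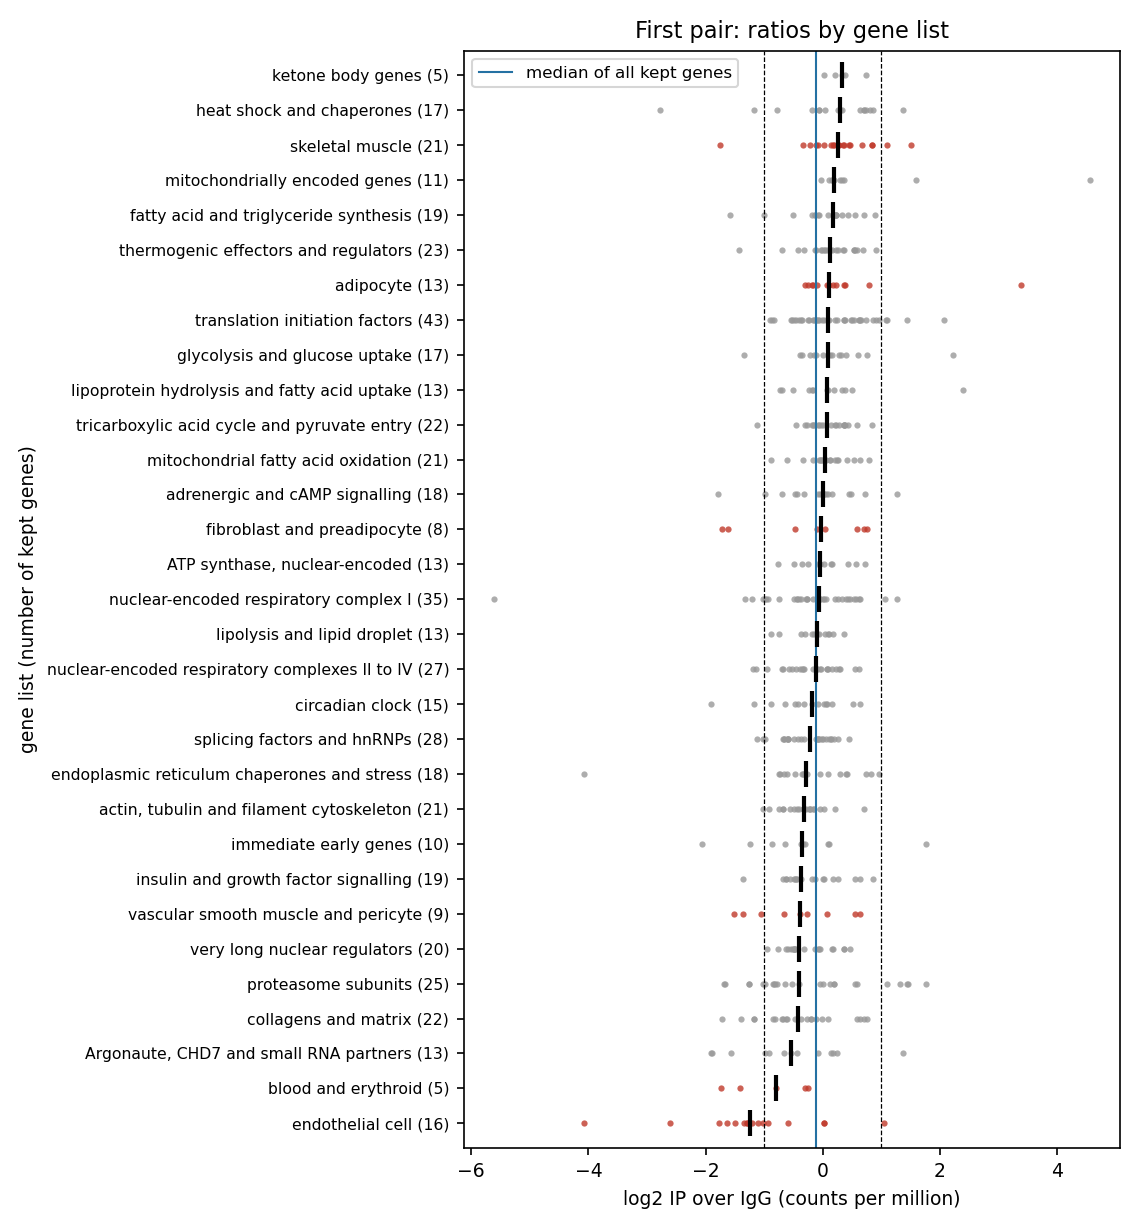
Each row is 1 gene list with at least 5 kept genes and at most 60 listed genes, with its number of kept genes in parentheses; dots are log2 ratios of single genes (red for cell type lists, grey for function lists), black bars are medians, and the blue line is the median of all genes at -0.11. The medians run from 0.32 for ketone body genes to -1.25 for endothelial genes, the only median in the plot beyond the dashed 2-fold lines.

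The annotation of cell compartments in the deposited table, from which 22 terms were chosen after values had been seen, had its lowest medians outside the cell and at its surface. Genes of the extracellular matrix had a median of -0.63, with 21 of 72 (29.2%) at least 2-fold lower, against 15.6% of all genes, and 8 (11.1%) at least 2-fold higher, against 8.19%. Those of receptor complexes were at -0.54 with 16 of 46 lower and 1 higher, and those of cell-cell junctions were at -0.45 with 18 of 82 lower and 2 higher. These terms share genes with the endothelial and matrix lists. Genes of the mitochondrion were at -0.00 over 930 genes and those of its inner membrane at 0.03 over 251. Genes of the nucleus were at -0.14 over 2585, and those of the endoplasmic reticulum at -0.06 over 556.

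Transcript features were weakly related to the ratio. Of the kept genes 6485 matched a protein-coding GENCODE vM21 transcript of the mm10 genome, and the longest one was used. Across these genes, Spearman's rho was -0.06 with transcript length, -0.08 with GC content and -0.09 with the length of the coding sequence. For the length of the 3′ untranslated region it was -0.01. Genes are not independent replicates, and no p-value is given. At 100 CPM and above (1913 genes) the values were -0.14, -0.15 and -0.20 in the same order, and 0.01 for the 3′ untranslated region. The median ratio was -0.03 in the fifth of genes with the shortest coding sequence and -0.23 in the fifth with the longest, a range smaller than the spread within either, which was 0.97 and 0.84 (SD).

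The FPKM columns of the same 2 libraries gave broadly similar ratios, with large gaps for some genes. FPKM is divided by a transcript length as well as by depth, and the counts are not divided by length. Over the 6536 genes, FPKM ratios (each FPKM column rescaled to the same sum) followed count ratios with r = 0.83 (Pearson) and rho = 0.81 (Spearman). Both come from the same fragments, so that this is a description of the estimation and not a check of the ratios. Both were on the same side of 0 for 85.3% of genes, and 962 genes changed side. In FPKM 704 genes (10.8%) were at least 2-fold higher and 1260 (19.3%) lower.

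The genes past the line were partly the same in both. Higher in both were 419 genes, which is 78.3% of those by counts and 59.5% of those by FPKM. Lower in both were 828 genes, or 81.2% and 65.7%. A gene past the line in 1 direction by counts and in the other by FPKM was rare, with 1 gene higher and 4 genes lower by counts. The gap between both ratios was measured from its median over all kept genes. It was under 0.1 for 48.6% of genes and at least 1 for 738 genes (11.3%).

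This gap grew with the number of annotated protein-coding transcripts, the only kind counted here. It was under 0.1 for 68.3% of the 1488 genes with 1 transcript, for 50.7% of those with 2, for 44.0% of those with 3 or 4, and for 32.7% of those with 5 or more. The share with a gap of at least 1 went from 7.59% to 15.3% over the same classes. Genes with a single annotated protein-coding transcript were not free of large gaps, and other kinds of transcript they may have were not counted. Ubr1, a ubiquitin ligase, was at 61.8 and 54.8 CPM but at 56.4 and 5.48 FPKM, so that its ratio was 0.17 in counts and 3.30 in FPKM. Xrn2, a nuclear exonuclease, was at 36.5 and 38.7 CPM and at 8.08 and 70.4 FPKM, a ratio of -0.08 against -3.19.

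The other genes with the largest gaps had several protein-coding transcripts. Kcnj15, a potassium channel with 13 annotated protein-coding transcripts, had a ratio of 0.57 in counts but 65.6 and 3.94 FPKM. The transporter Abca8a was lower by counts, at -1.27, and higher by FPKM, at 1.99. Ccdc137 was lower in both, at -2.43 and -5.44. Wnk4, a kinase, was higher by counts with 262 and 30 fragments, at 2.88, and at -0.14 in FPKM. None of these 6 genes was at 100 CPM.

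**Figure D5:**
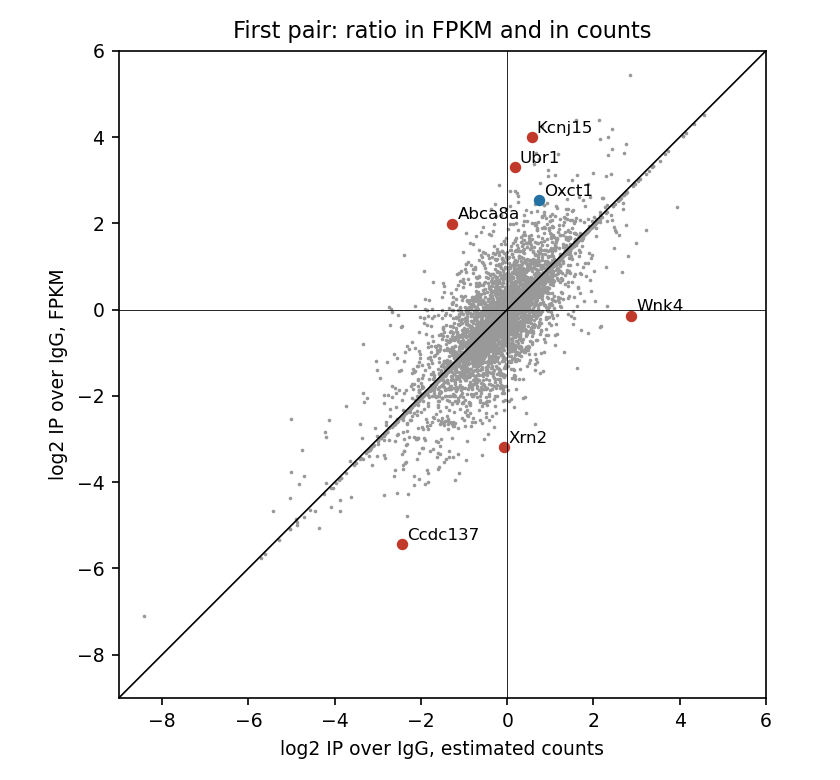
Each point is 1 of the 6536 genes, with its log2 ratio of IP over IgG in estimated counts on the horizontal axis and in FPKM on the vertical axis; the diagonal marks equal ratios. Many genes lie on or next to the diagonal, and the 6 genes with the largest gaps (red) and Oxct1 (blue) are named.

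Values of the WT4 pair stand beside those of the first pair, without a test. That pair was shallower, with 1631861 fragments in IP and 360371 in IgG, and its table was normalized separately. By the same rule 7587 of its genes were kept, of which 1169 (15.4%) were at least 2-fold higher and 2870 (37.8%) lower. Over the 4891 genes kept in both pairs, the ratios of the pairs were related with r = -0.02 (Pearson) and rho = -0.02 (Spearman). Of these genes 311 were at least 2-fold higher and 752 lower in the first pair, and 1084 were higher and 894 lower in WT4. Higher in both pairs were 61 genes, and lower in both were 144. Another 101 were higher in the first pair and lower in WT4, and 142 the reverse. At 500 CPM and above in both pairs r was 0.08 over 111 genes.

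Among genes with fragments in both WT4 libraries, only some from the lower end of the first pair had the same direction there. Of the 12 highest genes of the first pair 6 had 0 fragments in WT4 IgG and 11 to 81 in WT4 IP. No direction is read from these, since 3 fragments in the shallow WT4 IgG library are already 8.32 CPM. Gkap1 and Lox were under that level in WT4 IP, at 6.74 and 7.35 CPM. The 6 with fragments in both WT4 libraries were all lower in IP there. Lep had 24 fragments in WT4 IP and 54 in IgG, a ratio of -3.35. Of the 12 lowest genes 9 had fragments in both WT4 libraries, with 3 higher and 6 lower in IP. The other 3 had 0 fragments in WT4 IgG. The directions at both ends were not set against those of all genes. For the 13 endothelial genes kept in both pairs, the WT4 median was 0.69, with 3 at least 2-fold higher and 1 lower. Of all 4891 genes kept in both pairs, 1084 were higher and 894 lower in WT4, with a WT4 median of 0.0087. Fam172a was at -0.14 in WT4, with 98.95 and 24 fragments, and Bdh1 had 31 fragments in IP and was listed at 0 in IgG. Ucp1 was at 0.64 in WT4, with 3708 and 527 fragments.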

How the data were processed

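The authors deposited 1 table per pair, with an estimated count and an FPKM value per gene and library. The tools listed per the submitters' processing notes are HISAT2, Cuffdiff, Cufflinks and cutadapt 1.9.3, with mm10 as the build and without roles. The annotation release, and whether counting used strand, are not stated in the labels or headers. The kits named in the labels deplete ribosomal RNA and keep strand.

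In each column, the estimated counts that the authors deposited move in steps of a fixed size, which was 0.926 (IP) and 1.09 (IgG). Division by it gave fragments, whole to within 0.05 for 95.3% and 94.6% of positive values. Values under 1 fragment were taken as 0. Each table has 22564 rows, of which 1 was emptied for this work. The 79 symbols on more than 1 row were summed. Of the kept genes, 1966 (30.1%) share a locus interval with another gene.

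Ratios were computed with Python 3.11.15 (pandas 2.3.3, numpy 2.4.6) and intervals with scipy 1.17.1, and the ratio steps were tested on simulated data. TMM factors came from edgeR 4.0.16. Transcript features came from GENCODE vM21.

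The members, the 39 gene lists and the alternatives were chosen with earlier results of these data known. Named genes are the 12 highest and 12 lowest with an unshared locus and a standard symbol, the 12 most abundant, Fam172a, Bdh1 and Ucp1, the most abundant, highest and lowest of each list, the 3 largest FPKM gaps each way, and the 6 most abundant genes at 0 in either library. All 20 endothelial genes are also named. Other named genes were chosen after their values were seen. No column of another sample was left out. Some genes that this rule names are not reported here.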

Additional observations from a re-analysis of the deposited data

Results flagged for a closer look

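Opposite directions in both pairs brought up these results. Each pair has 1 library a side, and the difference between the pairs was not tested. Endothelial genes had a median log2 ratio of -1.25 in the first pair against 0.69 in WT4. For 11 genes named in the text the ratio passed the 2-fold line in both pairs, upward in 1 of them and downward in the other. Lep was at 3.39 in the first pair and -3.35 in WT4. Grik3 was at 4.08 and -1.42, and Prx was at 3.02 and -1.87. Lmf1 was at 2.40 and -1.79, and Zfp36 was at 1.76 and -1.83. In the other direction, Cox6a1 was at -1.20 in the first pair and 4.33 in WT4, Creb1 was at -1.79 and 2.36, and the pericyte gene Rgs5 was at -1.05 and 1.04. The endothelial genes Tek and Robo4 were at -1.10 and -1.21 in the first pair and at 2.35 and 2.52 in WT4, and Nid1 of basement membranes was at -1.18 and 3.25. The WT4 values rest on few IgG fragments, with 1 for Cox6a1, 7 for Creb1 and Robo4, 10 for Nid1 and 11 for Tek.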

How the results depend on the processing

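No paired analysis was possible because the comparison has 1 library on each side, and for the same reason no library could be left out in turn. The number of genes at least 2-fold higher in IP was 535. It was 1223 with a mean of at least 5 CPM, 62 with at least 100, 1452 with no filter on the mean and 839 in the FPKM columns, where the filter was also applied to FPKM. The number at least 2-fold lower was 1020, and it was 1994, 108 and 2233 under the same 3 filters. In the counts of higher and of lower genes, the other alternatives stayed within 1.5 times. The median ratio over all genes was -0.11. It was 0.027 with edgeR's TMM factors, -0.075 with totals taken without mitochondrially encoded genes, -0.0025 at 100 CPM and above, and -0.15 in FPKM. The median of the endothelial genes lay between -1.32 and -1.11 under all alternatives. Of these genes 11 were at least 2-fold lower, and 7 at 100 CPM and above, where 8 genes were left. The Pearson r between FPKM and count ratios was 0.83, and 0.87 at 5 CPM, 0.80 at 100 CPM and 0.84 without shared loci. In FPKM the ratio of Abca8a was 1.99 and that of Wnk4 was -0.14, each on the other side of 0 from the counts. The Schwann cell and neuron list, with 3 kept genes, had a median past the 2-fold line. It was -0.027 with a mean of at least 5 or with no filter, and -0.33 in FPKM with the filter applied to FPKM. For the same 3 genes the FPKM median was 1.45. More genes enter under a lower filter, and a filter on FPKM changes which genes are kept. The cause of the other changes was not tested. Of 1477 values of 162 genes, named by the rule or in the text, 1445 kept their direction. Many of these values could not change, because the level filters and leaving out shared loci only select genes. With TMM factors 154 of 162 genes kept their direction, and in FPKM 127 of 139. Of 338 medians of the lists other than the endothelial one 308 did. These were 29 of 34 with TMM factors and 27 of 34 in FPKM. Taking any value above 0 as present, chosen after seeing the data, gave 544 higher and 1033 lower genes. Ratios of genes near 20 CPM are the least precise, and no setting measures the spread between repeats.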
